A study of Mus musculus with 2 samples.

Results

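The miR-99/100 family (mmu-miR-99a, mmu-miR-99b and mmu-miR-100) and the miR-125 family (mmu-miR-125a-5p and mmu-miR-125b-5p) are described here in the microvesicles that 3T3-L1 adipocytes release, and are written below without the mouse prefix. They were chosen by name, as the array entries of these names without a star (*). They make up 5 of the 567 mouse microRNAs (miRNAs, short RNAs that lower the output of messenger RNAs) on the array. The 3T3-L1 line consists of mouse preadipocytes, which become adipocytes once induced with hormones. Vesicles were pelleted by ultracentrifugation from medium that the cells had conditioned for 48 h, in a late window (day 8-10) or an early one (day 2-4). Cells of both windows were kept in high-glucose medium with 10% fetal calf serum, and the induction used dexamethasone (0.25 µM), 3-isobutyl-1-methylxanthine (0.5 mM) and insulin (10 µg/ml). Each window was represented by 1 array hybridised with Cy3-labelled RNA from 100 ng of total RNA, and both arrays lay on 1 slide. No difference between the windows therefore has a replicate check, none carries a p-value, and preparation, hybridisation and window cannot be told apart. The SD and SE given below are between spots of 1 array and are technical only. The SE of a miRNA leaves out the difference between its probes.

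A miRNA was called detected where more than 0.5 of the spots of at least 1 of its probes were well above background. Of all mouse miRNAs, 166 were detected at day 8-10 and 156 at day 2-4. The 7 adipocyte-linked miRNAs looked up as a check of the labelled cell type were all detected on both arrays, and 6 of them were at least 2-fold higher at day 8-10 (list median log2 difference 1.41), where 15.9% of the 145 miRNAs detected on both arrays were. That count was 2 of 7 with the 75th percentile over all probes, with normexp or without background subtraction, and 4 to 6 in the other settings. The list was chosen with earlier results of these data known, so it is not an independent check. Both arrays are labelled as adipocyte, so a difference between them does not check the cell type. Of 4 fibroblast and mesenchymal miRNAs 3 were detected (not miR-145). At day 8-10, 2 of them were at least 2-fold lower (list median -1.40), where 7.59% of the 145 miRNAs detected on both arrays were. The count on this list was 1 to 3 over 14 other settings. Of all miRNAs detected on both arrays, 5 (normexp) to 29 (75th percentile over all probes) were lower in those settings. Of 6 blood-cell miRNAs, which serum also carries, 4 were detected, as were 1 of 3 neural and 1 of 4 epithelial ones. None of the 3 muscle, 1 liver and 1 endothelial miRNAs was detected. Serum RNA and RNA of the cells cannot be told apart in these values, and fewer vesicles of a kind cannot be told apart from less RNA per vesicle. The part of these markers in the results below was not tested.

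An animal miRNA finds its messenger RNA targets mainly through the seed, bases 2 to 8 from its 5′ end, so members with the same seed share many predicted targets. miR-99a, miR-99b and miR-100 are known from work in human cells to repress the kinase mTOR and the IGF1 receptor, both part of the growth signalling that insulin engages. miR-125a and miR-125b are the vertebrate relatives of lin-4, the miRNA first described in Caenorhabditis elegans as a timer of development, and miR-125b is known to repress Lin28a, an inhibitor of let-7 maturation. The genes of these families lie in old clusters together with let-7 genes. A mature miRNA such as miR-125b-5p that is made from more than 1 gene gives 1 signal, which cannot be assigned to a gene.

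The mature sequences show which members share a seed and how little separates some of them. They are those of the RefSeq annotation of GRCm38.p6, all on the plus strand except miR-351, with the seed in capitals. miR-351 is added because it was the other array entry with the miR-125 seed.
miR-99a: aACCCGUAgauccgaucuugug
miR-99b: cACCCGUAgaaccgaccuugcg
miR-100: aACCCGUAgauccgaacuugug
miR-125a-5p: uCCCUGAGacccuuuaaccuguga
miR-125b-5p: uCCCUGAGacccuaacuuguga
miR-351: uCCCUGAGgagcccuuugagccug
Of 1679 mature names in that table, 3 carried the seed of the miR-99/100 family, all of them members. The seed of the miR-125 family was carried by 5, namely the 2 members, miR-351, miR-6367 and miR-6394, and 3 of these were on the array.

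In that annotation miR-99a lies at chr16:77598940-77598961, near Mirlet7c-1, and no other gene of the table spans it. miR-99b lies at chr17:17830194-17830215 and miR-125a-5p at chr17:17830817-17830840. Their genes, with Mirlet7e between them, lie within the protein-coding gene Spaca6. miR-100 lies at chr9:41531437-41531458 within the long noncoding RNA gene Mir100hg, which also holds Mirlet7a-2 and Mir125b-1. miR-125b-5p is encoded at chr9:41581940-41581961 (Mir125b-1) and again at chr16:77646279-77646300 (Mir125b-2). The table gives gene spans only, so exon and intron are not stated.

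The probes read the 3′ part of each miRNA and not its 5′ end. Within each of chromosomes 9, 16 and 17, the positions that the files give for the probes all lay at 1 fixed distance from the annotated 3′ ends, which places each probe on the last bases of its miRNA. The probes of miR-99a and miR-100 matched bases 5 to 22 (18 bases) and 4 to 22 (19 bases). Those of miR-99b matched 15 and 16 bases, those of miR-125a-5p 18 and 19 bases, and those of miR-125b-5p 16 and 17 bases. miR-99a and miR-100 differ by the substitution U16A (the base of miR-99a first, counted from its 5′ end), so each of their probes is 1 mismatch away from the other miRNA. In the lines below the differing base is in capitals.
miR-99a: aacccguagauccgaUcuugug
miR-100: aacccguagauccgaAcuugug
miR-99b differs from miR-99a by A1C, U11A, U16C and U21C, and the stretch under its probes had 3 mismatches to its closest relatives. miR-125a-5p and miR-125b-5p share their first 13 bases and their last 5, and the stretch between them, shown in capitals, differs in sequence and length.
miR-125a-5p: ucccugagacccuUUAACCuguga
miR-125b-5p: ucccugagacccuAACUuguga
Without gaps, the stretches under the miR-125a-5p and miR-125b-5p probes had at least 4 mismatches to every other mature miRNA of the table. miRNAs shorter than the stretch were left out of this count. As these 2 members differ in length, a count without gaps can overstate how far apart they are. How much signal near-identical members share was not tested. Another near-identical pair is miR-10a and miR-10b, relatives of the miR-99/100 family that differ from each other by U12A alone (the base of miR-10a first). The miR-10b probes averaged 32.3 and 104 intensity units at day 8-10 and 43.8 and 137 at day 2-4, whereas those of miR-10a, 1 mismatch away, averaged -0.11 and 0.922 at day 8-10 and -0.16 and 1.28 at day 2-4.

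All 5 members were detected on both arrays, against 25.6% of the mouse miRNAs. None differed by 2-fold between the windows. Of the miRNAs detected on both arrays, 15.9% were higher at day 8-10 by at least 2-fold and by more than 2 spot SE, and 7.59% were lower by the same rule. The direction was lower at day 8-10 for miR-99a and miR-125b-5p, lower for miR-100 and miR-99b except with normexp or no background subtraction, and higher for miR-125a-5p except with the 75th percentile over all probes or quantile normalization. For comparison, 37.2% of the miRNAs detected on both arrays were lower and 62.8% higher. Over the 5 members the median log2 difference (day 8-10 minus day 2-4, arrays scaled to the 75th percentile of the probes detected on both) was -0.16, against 0.20 over all miRNAs detected on both arrays. Each member was read by 2 probes with 10 spots each, and 96 of 100 member spots at day 8-10 and 93 of 100 at day 2-4 were used after outlier spots were left out. No member spot was saturated.

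**Figure D1:**
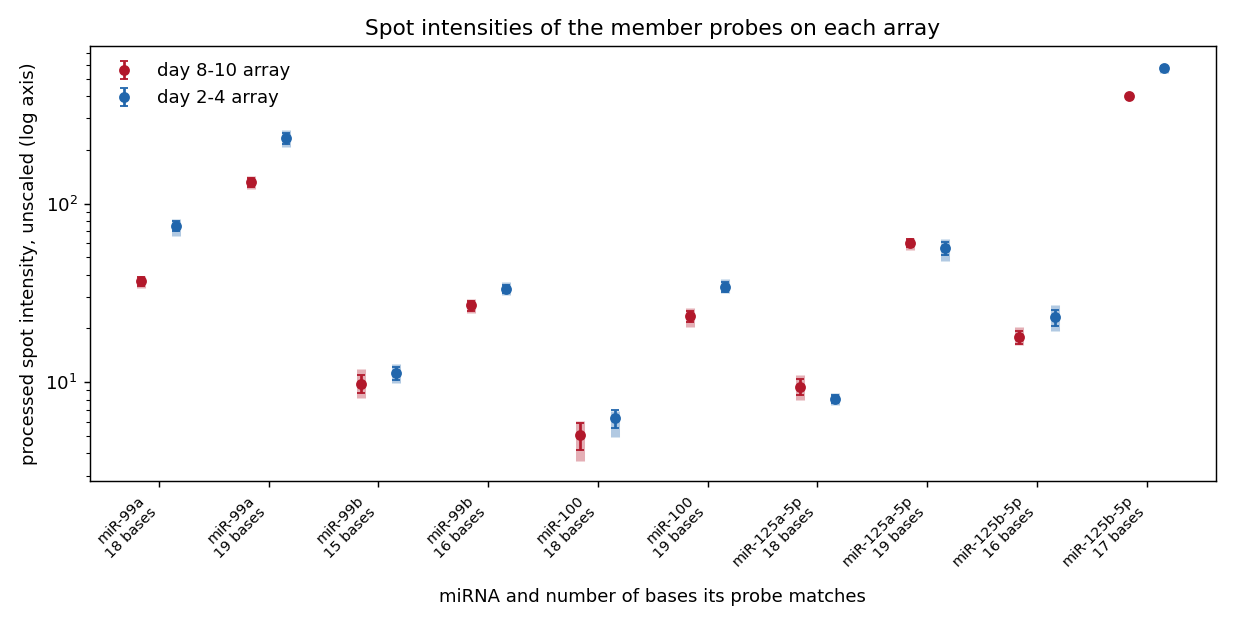
Processed spot intensity (unscaled, log axis) of each member probe on the day 8-10 array (red, left of each pair) and the day 2-4 array (blue, right). Points are means over 7 to 10 spots, whiskers are the SD between spots and pale bars run from the lowest to the highest spot. Both miR-99a probes and the brighter probes of miR-99b, miR-100 and miR-125b-5p have no overlap between the arrays, while the miR-125a-5p intensities overlap before scaling.

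miR-99a showed the largest difference of the 5. Its 18-base probe averaged 36.7 ± 1.91 intensity units (SD over 9 spots, 33.7 to 39.4) at day 8-10, against 75.2 ± 4.70 (10 spots, 65.9 to 82.3) at day 2-4. Its 19-base probe averaged 131 ± 8.04 (10 spots, 120.5 to 144) at day 8-10, against 232 ± 16.6 (10 spots, 207 to 258) at day 2-4. Every spot of both probes was lower at day 8-10 than the lowest spot at day 2-4. After scaling, the log2 difference was -0.85 for the shorter probe and -0.64 for the longer one, and -0.74 (spot SE 0.029) for the miRNA, which was 1.67-fold lower at day 8-10. Among the 145 miRNAs, 18 had a lower difference than miR-99a. It reached the 2-fold rule under 2 other scalings: its log2 difference was -1.25 when all mouse probes set the 75th percentile and -1.01 when arrays were scaled to the median of the probes detected on both.

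miR-100, which carries the same seed as miR-99a, differed less. Its 19-base probe averaged 23.4 ± 1.71 (10 spots, 20.4 to 26.2) at day 8-10, against 34.1 ± 2.12 (10 spots, 31.7 to 37.6) at day 2-4, with no overlap and a log2 difference of -0.36 after scaling. Its 18-base probe was near the detection limit, with a mean of 5.05 ± 0.862 at day 8-10, where 5 of 10 spots were well above background, and of 6.28 ± 0.717 over 7 spots at day 2-4. That probe was not detected at day 8-10, lay at the floor there for 6 of its 10 spots, and gave a log2 difference of 0.044. The value of miR-100 over both probes was -0.16 (spot SE 0.040), and -0.36 with the probe detected on both arrays alone.

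miR-99b, the member of this family on chromosome 17, had nearly equal signals in both windows under this scaling and lower ones at day 8-10 under others, with log2 differences down to -0.58 when all mouse probes set the 75th percentile. Its 16-base probe averaged 26.9 ± 1.78 (10 spots, 24.5 to 29.2) at day 8-10, against 33.4 ± 1.74 (10 spots, 31.0 to 36.4) at day 2-4. Its 15-base probe averaged 9.83 ± 1.16 (10 spots, 8.21 to 11.9) at day 8-10, against 11.2 ± 0.951 (9 spots, 9.85 to 12.7) at day 2-4. Unscaled spots of the 16-base probe were all lower at day 8-10. After scaling, the spots of both probes overlapped between the arrays, and the log2 difference of miR-99b was -0.068 (spot SE 0.039).

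miR-125b-5p, known in human cells to repress regulators of apoptosis, was lower at day 8-10 on both probes. Its 17-base probe averaged 399 ± 7.79 (8 spots, 390.0 to 412) at day 8-10, against 571 ± 15.8 (9 spots, 541 to 591) at day 2-4, without overlap. Its 16-base probe averaged 17.9 ± 1.44 (10 spots, 16.3 to 20.5) at day 8-10, against 23.1 ± 2.42 (10 spots, 19.4 to 27.1) at day 2-4, with overlap. The log2 differences of the probes were -0.33 and -0.18, and the miRNA was 1.19-fold lower.

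miR-125a-5p, known in human breast cancer cells for repressing the receptor ERBB2, was the one member with a positive difference. Its 19-base probe averaged 60.3 ± 3.28 (10 spots, 54.7 to 64.3) at day 8-10, against 56.1 ± 4.87 (10 spots, 48.0 to 63.7) at day 2-4. Its 18-base probe averaged 9.45 ± 0.929 (9 spots, 7.92 to 11.0) at day 8-10, against 8.06 ± 0.417 (8 spots, 7.43 to 8.72) at day 2-4. Unscaled spots of both probes overlapped between the arrays, and after scaling the spots of the 18-base probe no longer did. The log2 difference was 0.35 (spot SE 0.036), or 1.28-fold higher at day 8-10, with 0.41 and 0.29 for the probes. This sign rests on the scaling: it was -0.16 when all mouse probes set the 75th percentile, and quantile normalization gave -0.13.

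Of the 9 member probes detected on both arrays, the scaled spots of 4 were all lower at day 8-10 without overlap and those of 1 all higher, while 4 overlapped. Over the 279 probes detected on both arrays, 26.5% were lower and 38.0% higher in this way. The members' probes agreed in sign except those of miR-100. The positive sign of its 18-base probe depends on the floor, where 6 of 10 spots lay at day 8-10 and 0 at day 2-4. With a floor at 1 intensity unit, miR-100 over both probes moved from -0.16 to -0.25. Probes of opposite sign were found in 10.7% of the 121 such miRNAs that had more than 1 probe in use.

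**Figure D2:**
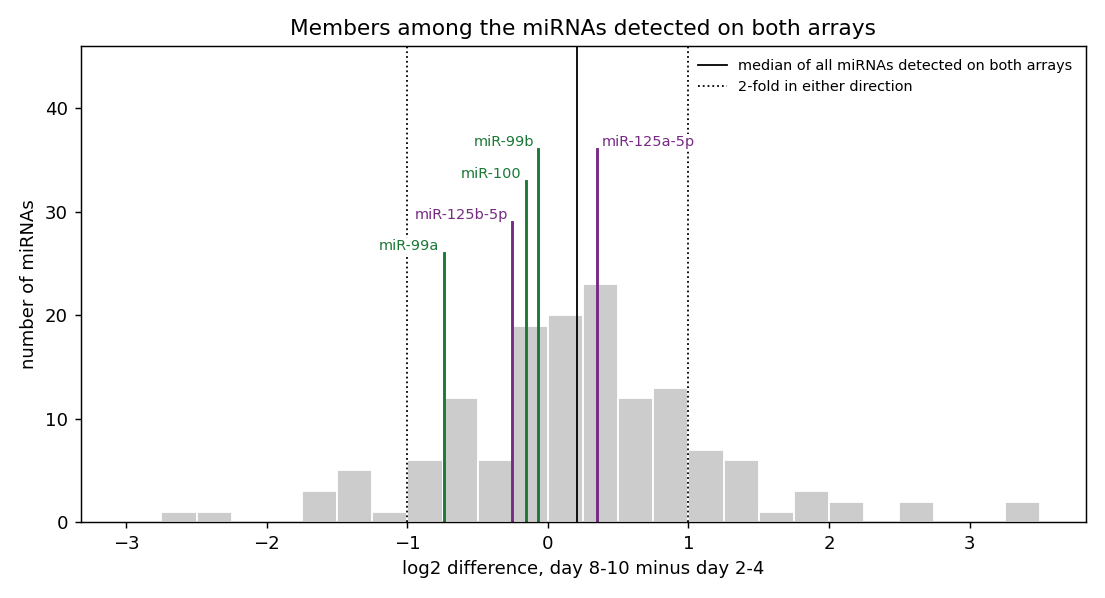
Number of miRNAs by log2 difference (day 8-10 minus day 2-4, bins of 0.25) for the 145 miRNAs detected on both arrays, with the members as coloured lines (miR-99/100 family green, miR-125 family purple) whose heights carry no value. miR-99a at -0.74 lies farthest left of the members, miR-125b-5p, miR-100 and miR-99b lie left of the median of 0.20 (black line), and miR-125a-5p at 0.35 lies to its right.

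Differences between members do not depend on the factor that scales an array as a whole, and they set the order of the members. The log2 difference of miR-99a was below that of miR-100 by 0.59 and below that of miR-99b by 0.67, each with a spot SE under 0.050. With the miR-100 probe detected on both arrays alone, the gap of miR-99a to miR-100 was -0.39, and with quantile normalization it was -0.26. miR-125a-5p stood 0.61 above miR-125b-5p, a 1.52-fold gap between members of 1 seed family that ran from 0.32 to 0.69 over 14 other settings. The neighbours miR-125b-5p and miR-100 did not differ by more than 2 spot SE (gap -0.097, spot SE 0.051), nor with that miR-100 probe alone (0.10, spot SE 0.054). For miR-100 and miR-99b the gap was -0.088 (spot SE 0.056), within 2 spot SE, but -0.29 (spot SE 0.059) with that miR-100 probe alone. Levels of different members are not ranked, since signals of different probes are not amounts.

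Relative to the median of all miRNAs detected on both arrays, miR-99a stood at -0.95, miR-125b-5p at -0.46, miR-100 at -0.36, miR-99b at -0.27 and miR-125a-5p at 0.15. Over 14 other settings, miR-99a stayed the lowest member, between -0.99 and -0.58 relative to that median. Those of the settings that only rescale whole arrays or centre the differences cannot change such values. miR-125b-5p stayed between -0.54 and -0.29, miR-100 between -0.56 and -0.11 and miR-99b between -0.32 and -0.066. miR-125a-5p was the highest member in each setting and lay between -0.016 and 0.18.

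**Figure D3:**
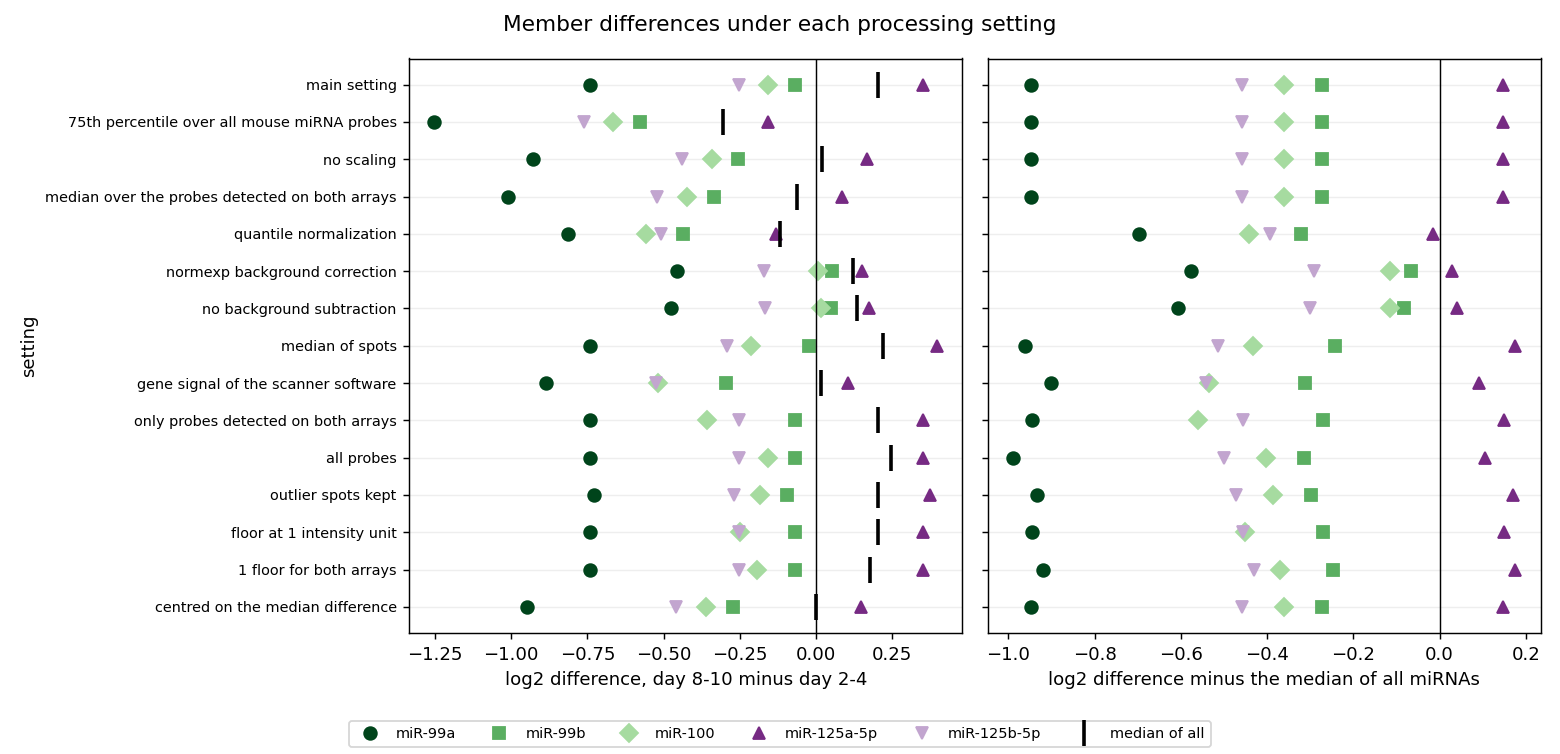
Log2 difference (day 8-10 minus day 2-4) of each member under each processing setting, as such (left panel, with the median of all miRNAs detected on both arrays as a black bar) and after that median was subtracted (right panel). miR-99a is the lowest and miR-125a-5p the highest member in every setting. In the left panel the zero line falls on different sides of miR-125a-5p, miR-99b and miR-100, and in the right panel of miR-125a-5p only.

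Among the let-7 miRNAs whose genes lie in the same clusters, let-7c and let-7e had differences that departed from those of the members beside them. These gaps exceeded 2 spot SE, a technical measure that leaves out the difference between probes. let-7c, encoded near miR-99a and at another gene, had a log2 difference of 0.52, which is 1.26 above that of miR-99a. Its own value was 0.25 with median scaling and 0.012 when all mouse probes set the 75th percentile. On its probes the signal averaged 144 and 509 at day 8-10, against 118 and 391 at day 2-4, and all spots were higher at day 8-10. In contrast, let-7e, encoded between miR-99b and miR-125a and at no other gene of the table, had -0.39, which is 0.32 below miR-99b and 0.74 below miR-125a-5p. Its probes averaged 39.4 and 101 at day 8-10, against 60.9 and 145 at day 2-4, with all spots lower at day 8-10. let-7a, also encoded on chromosome 13 (Mirlet7a-1), had -0.040, with probes at -0.14 and 0.061, and its signal cannot be assigned to 1 gene. Of these 3 partners none reached 2-fold, and their median was -0.040. The probes of let-7a, let-7c and let-7e are each 1 mismatch away from another let-7 member, and shared signal among them was not tested.

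**Figure D4:**
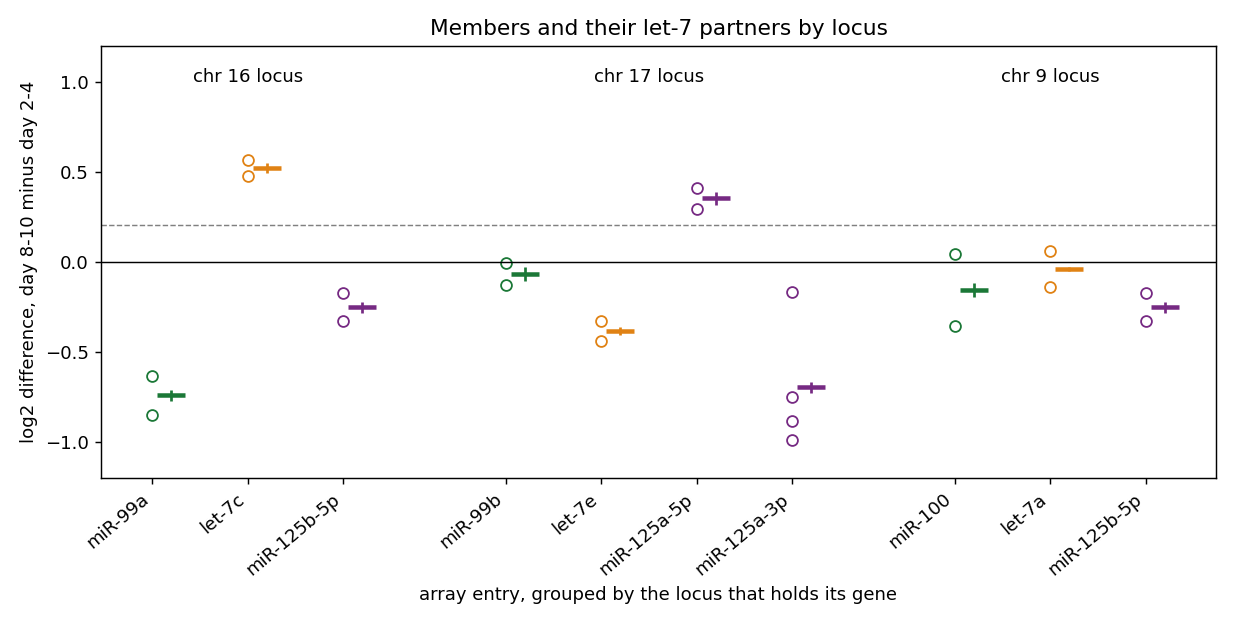
Log2 difference (day 8-10 minus day 2-4) of members, let-7 partners and miR-125a-3p by the locus that holds their genes, with open circles for single probes and bars for the miRNA with its spot SE. The dashed line is the median of all miRNAs detected on both arrays (0.20). miR-125b-5p stands at both the chr 16 and the chr 9 locus because both encode it, and let-7c at 0.52 lies opposite miR-99a at -0.74. let-7a and let-7c are also encoded at genes outside the loci shown.

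The arms of the miR-125a hairpin differed in opposite directions, except under the scalings that turned the sign of miR-125a-5p. miR-125a-3p, the 3′ arm, was detected on both arrays with a log2 difference of -0.70, which is 1.05 below miR-125a-5p (spot SE 0.046). Its 13-, 14- and 15-base probes averaged 28.0, 30.7 and 30.7 at day 8-10, against 63.1, 58.4 and 64.5 at day 2-4, without overlap. Its 16-base probe averaged 80.4 ± 3.66 at day 8-10, against 103 ± 6.59 at day 2-4 (5 spots each). The spots of the 16-base probe overlapped between the arrays only after scaling. The log2 differences from the shortest to the longest probe were -0.99, -0.75, -0.89 and -0.17, and the value was -0.29 with normexp background correction. The gap between the arms kept its sign in 14 other settings, between 0.44 and 1.12. Those of the settings that only rescale whole arrays or centre the differences cannot change this gap.

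The other opposite arms gave little signal. miR-99b* was detected on the late array only, through 1 of its 4 probes (6.92 intensity units at day 8-10 and 4.55 at day 2-4). With each spot counted at no less than the lowest detected signal of its array, miR-99b* was 1.52-fold higher there (spot SE 0.20 in log2). This is not a lower bound, since 2 of 5 spots at day 8-10 also lay at that floor. With 3 other array scalings the fold was 1.07 to 1.33. Neither miR-125b* nor miR-125b-3p, the 3′ arms of the miR-125b hairpins, was detected, with probe means from -0.88 to 0.523 at day 8-10 and from -0.93 to 0.616 at day 2-4. Among the relatives by sequence, miR-10b had a log2 difference of -0.23 with all spots of both probes lower at day 8-10, and miR-10a was not detected. miR-351, a rodent miRNA with the miR-125 seed encoded on the X chromosome, was detected at day 2-4 only, on 1 of 4 probes. That probe averaged 0.182 intensity units at day 8-10 and 6.71 at day 2-4. With dim spots counted at the floor, miR-351 was 1.05-fold lower at day 8-10, which is within 1 spot SE (0.11 in log2). With those scalings the fold was 1.19 to 1.49.

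Of the 12 array entries known to act on insulin, IGF and mTOR signalling, the pathway that miR-99/100 members touch, 6 were detected. Of all 567 mouse miRNAs, 177 were detected on at least 1 array. On this list 3 entries were detected on both arrays, none with a 2-fold difference. Over all miRNAs detected on both arrays, 15.9% were higher and 7.59% lower by that rule. The median log2 difference of these 3 entries was -0.22. miR-199b, which the fibroblast and mesenchymal list also holds, had -0.95, and was past 2-fold lower without scaling (-1.13), with the gene signal (-1.13), centred (-1.15), with median scaling (-1.22) and with the 75th percentile over all probes (-1.46). miR-223, known to target the IGF1 receptor, is also on the list of blood-cell miRNAs, which serum carries too. Its difference was -0.22 on 1 of its 2 probes, with the opposite sign in 3 of 14 other settings (up to 0.080). miR-497 had 0.96 on 1 of its 2 probes, which was near background at day 2-4 (mean 5.19 intensity units, 4 of 10 spots at the floor). Its difference was 0.21 with normexp and past 2-fold higher with the median of spots or a floor at 1 intensity unit (1.05 and 1.06). With dim spots counted at the floor, the entries detected at day 8-10 only were 1.67-fold (miR-101a), 1.96-fold (miR-101b) and 1.52-fold (miR-195) higher under the main scaling. miR-101b and miR-195 each rest on 1 of 2 probes. With 3 other array scalings the folds of miR-101a, miR-101b and miR-195 ran from 1.18 to 1.47, from 1.38 to 1.72 and from 1.07 to 1.33, in that order. miR-7a, miR-7b, miR-126-3p, miR-133a, miR-133b and miR-145 were not detected. Outside the families and over these 2 arrays, the miRNA differences nearest to the members' median of -0.16 were those of miR-146b (-0.15), miR-25 (-0.14) and miR-652 (-0.13), by the absolute gap in that 1 difference.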

How the data were processed

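Per the file headers, the authors deposited linear spot intensities read out by Agilent Feature Extraction (version 9.5.3.1). The processed intensity used here is, per the file headers, the spot signal minus a fitted background surface, which can leave dim spots negative, and no normalization between arrays was applied. Other deposited columns are the mean spot and local background intensity, a summed gene signal and flags. In the deposited value table, 24986 of 24986 spots equalled the processed intensity of the scanner files, and the column medians (0.646 at day 8-10, 0.516 at day 2-4) showed a linear scale without centring. The sources used here do not name the genome build of the files' positions.

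Outlier spots (249 at day 8-10 and 237 at day 2-4) and control spots were not used. Scaling was to the 75th percentile of the 279 probes detected on both arrays (95.2 intensity units at day 8-10 and 108 at day 2-4). Values were floored at the array's lowest detected probe (5.55 at day 8-10 and 4.86 at day 2-4) and taken to log2. A probe's value was the mean of its spots, and a miRNA's the mean of its probes detected on at least 1 array. The rule for a 2-fold difference required detection on both arrays and a difference of more than 2 spot standard errors. Normexp used limma 3.58.1 (offset 50) in R 4.3.3, and the rest Python 3.11.15. The calculation was tested on arrays simulated from the day 2-4 values, with planted differences larger than those of the members. That check set the median shift between arrays aside, so it does not cover the choice of scaling. With 1 array per window no test was made, and the number of arrays limits the precision.

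The members, lists and alternatives were chosen with earlier results of these data known. Named miRNAs are the 5 members, the entries of the lists of let-7 partners, opposite arms, sequence relatives and insulin, IGF and mTOR signalling, entries with a member's seed, and the 3 miRNAs nearest in log2 difference to the members' median. miR-99a*, miR-100* and miR-199a-3p of these lists had no entry under that name.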

Additional observations from a re-analysis of the deposited data

How the results depend on the processing

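Of 14 other settings, miR-99a and miR-125b-5p were lower at day 8-10 in all 14, while miR-99b, miR-100 and miR-125a-5p each had the opposite sign in 2. The scalings moved the median over all miRNAs from 0.20 to -0.30 with the 75th percentile over all probes (10 higher and 29 lower by 2-fold, against 23 and 11), to -0.063 with the median of probes detected on both arrays (16 and 19), to -0.12 with quantile normalization (14 and 19) and to 0.019 without scaling (17 and 15). It was 0.015 with the scanner software's gene signal (19 and 18), and normexp gave 5 and 5 and no background subtraction 6 and 5.

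In the order miR-99a, miR-99b, miR-100, miR-125a-5p and miR-125b-5p, the log2 differences were -1.25, -0.58, -0.67, -0.16 and -0.76 with the 75th percentile over all probes, and -1.01, -0.34, -0.42, 0.085 and -0.52 with the median of probes detected on both arrays. miR-99a was the 1 member counted as 2-fold lower under each of these scalings. Without scaling they were -0.93, -0.25, -0.34, 0.17 and -0.44, with the gene signal -0.89, -0.30, -0.52, 0.11 and -0.53, and centred on the median of all miRNAs (an alternative chosen after seeing the data) -0.95, -0.27, -0.36, 0.15 and -0.46. Quantile normalization gave -0.81, -0.44, -0.56, -0.13 and -0.51, normexp -0.45, 0.054, 0.0064, 0.15 and -0.17, and no background subtraction -0.47, 0.050, 0.017, 0.17 and -0.17. The cause was not tested. With single probes the differences ran from -0.85 to -0.64 (miR-99a), -0.13 to -0.0091 (miR-99b), -0.36 to 0.044 (miR-100), 0.29 to 0.41 (miR-125a-5p) and -0.33 to -0.18 (miR-125b-5p). For miR-100, probes detected on both arrays gave -0.36, a floor at 1 intensity unit -0.25 and 1 floor for both arrays, also added later, -0.19.

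All 5 members were detected on both arrays whether any or all spots had to be well above background. The list medians with the 75th percentile over all probes were -0.55 (let-7 partners), -1.21 (opposite arms, 1 entry), -0.74 (sequence relatives, 1 entry) and -0.73 (insulin, IGF and mTOR list), and with normexp -0.29 (opposite arms), -0.10 (sequence relatives) and 0.041 (insulin, IGF and mTOR list). Signals near background limit the shorter probes of miR-100, miR-125a-5p and miR-99b. No paired analysis was possible because each window had 1 array.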
